A study of Homo sapiens with 60 samples.

Results

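The comparison set 3 libraries of HepG2 cells treated with a water extract of Longan Arillus at its high dose, 500 µg/mL, against the 3 libraries of the DMSO vehicle, 6 of the 60 libraries of the series. They were taken by their sample titles, and no measured value entered the choice. The series profiled herbs of a decoction of traditional Korean medicine by RNA-seq, each as an extract at 3 doses, beside wortmannin as the positive control, in 20 groups of 3 libraries. All groups used here had 24 h of treatment. The vehicle is labelled as 0.1% DMSO, while the text on the design of the series gives 2% DMSO, so its level is uncertain. The labels give no DMSO level for the extract libraries. Longan Arillus was also given at a medium dose of 100 µg/mL and a low dose of 20 µg/mL, and a water extract of Zizyphi Semen at 500 µg/mL is compared below because it shares the code set of Longan. Each library carries a sample code. The codes of both extracts belong to set 3 and those of the vehicle to set A1, and the labels do not explain the sets. Effects of the extract, of the code set and of any difference in DMSO therefore cannot be told apart in a comparison with the vehicle. High-dose Longan was also compared with its low dose and with high-dose Zizyphi, which share its set. The labels do not say whether replicates were separate cultures, so the spread between replicate libraries may be technical. The p-values rest only on that spread, estimated within groups over all 60 libraries.

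Longan Arillus is the fleshy aril of the fruit of Dimocarpus longan, eaten as a sweet fruit and used dried in East Asian medicine. HepG2 is a line from a human hepatocellular carcinoma that secretes many plasma proteins of the liver and keeps dividing in culture, so it stands for a tumour cell with hepatocyte traits and not for normal liver. Liver cells meet plant compounds through sensors of foreign or reactive molecules. NRF2 (encoded by NFE2L2) is released from KEAP1 by electrophiles and switches on genes of quinone reduction and glutathione supply, and the aryl hydrocarbon receptor binds planar ligands and switches on CYP1A1.

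Total counts ran from 21.57 to 27.05 M in the vehicle libraries and from 26.1 to 32.6 M in the high-dose libraries (20.21 to 36.41 M over the series). The GC slope of a library, the slope of its log2 deviation from the other libraries against the GC content of each gene, was -1.24 in vehicle replicate 1, the 2nd lowest of the 60 libraries. It was 0.06 and 0.10 in the other vehicle libraries and ran from -0.36 to 0.29 at the high dose (2-sided exact permutation p = 0.7 for the groups, where 3 against 3 cannot go below 0.1). Results are therefore given with and without vehicle replicate 1 where it decides them. The share of counts in mitochondrially encoded mRNAs was 14.1% ± 1.77 (SD, n = 3) in the vehicle and 11.9% ± 1.58 (SD, n = 3) at the high dose (2-sided exact permutation p = 0.3). By library it was 16.14, 13.01 and 13.15% in the vehicle and 10.31, 11.84 and 13.46% at the high dose, so the groups overlapped. The 8 hepatocyte markers summed to 43810 to 47830 CPM in the vehicle and 44100 to 45740 CPM at the high dose (CPM, counts divided by the TMM-scaled library size in units of 1e+06). PTPRC, CD3E and MS4A1 of the immune markers and COL1A2 and DCN of the fibroblast markers were at 0 in all 6 libraries. Other members of both sets were present. Of the immune markers, CD68 measured 45.19 to 49.15 CPM and LYZ 928.8 to 971.6 CPM in the vehicle libraries. Of the fibroblast and stellate markers, ACTA2 measured 51.43 to 57.36 CPM and PDGFRB 9.646 to 13.56 CPM there.

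Few genes passed the test between the high-dose Longan libraries and the vehicle, and most of those differed by small amounts. Of 16517 genes tested, 294 (1.78%) passed an adjusted p of 0.05 in the quasi-likelihood test of edgeR, with p-values adjusted by the Benjamini-Hochberg method over all tested genes, and every adjusted p-value below comes from this test. 155 were higher at the high dose (0.938%) and 139 lower (0.842%). At an unadjusted p under 0.05 in the same test there were 2409 genes (14.6%). The median absolute log2 fold change of the called genes was 0.26, 17 rose and 7 fell by 1.5-fold or more, and 6 rose and 3 fell by 2-fold or more. All but 1 of those 2-fold changes stayed under 5 CPM in both groups. The exception, the unnamed transcript ENSG00000265401, fell from a mean of 20.9 to 3.94 CPM with an SD of 13.3 CPM among the vehicle libraries, and it lies antisense to the ubiquitin gene UBB, so its reads may belong to that gene. AKR1B10, FST and NQO1 had the smallest p-values among the rises, and RFX7 and KPNB1 among the falls.

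**Figure D1:**
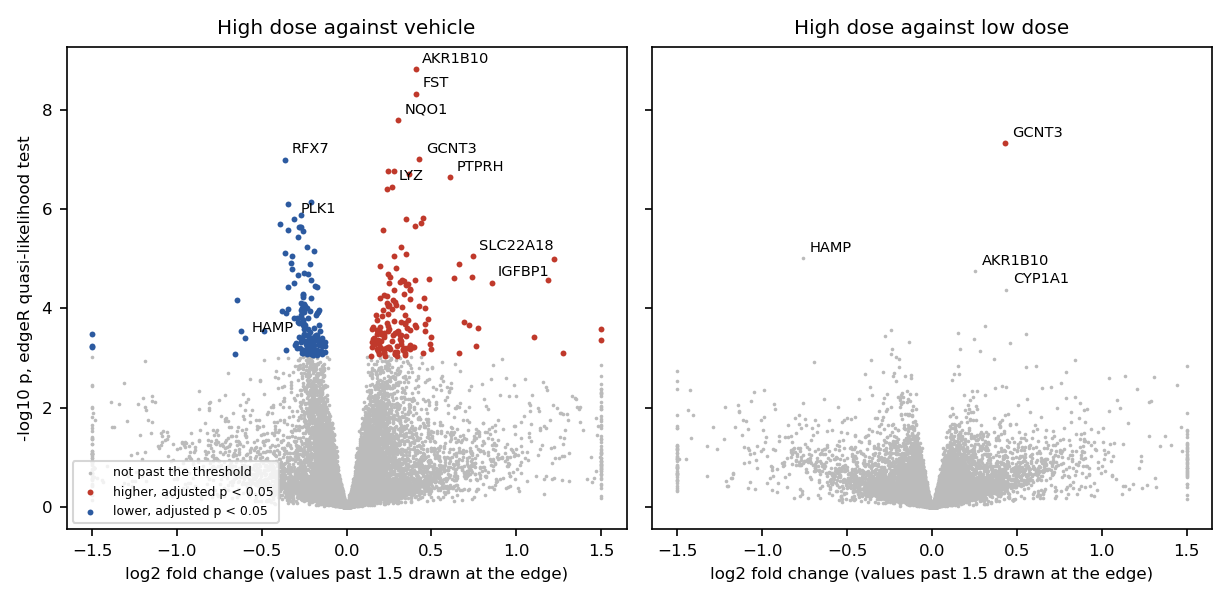
Log2 fold change (x axis) against the -log10 of the unadjusted p of edgeR's quasi-likelihood test (y axis) for each of the 16517 tested genes, for the high dose against the vehicle (left) and against the low dose (right), with genes past the adjusted threshold in red (higher) and blue (lower) and fold changes past 1.5 drawn at the edge. The left panel holds 294 called genes and the right panel 1, GCNT3.

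The number of calls depended on single libraries, above all on vehicle replicate 1. Without it 47 genes passed (27 higher, 20 lower). Leaving out any other of the 6 libraries left 91 to 244, and a fit of the 6 libraries alone, which estimates the spread from them only, called 12. Every high-dose library lay beyond every vehicle library for 152 of the 155 called higher and 139 of the 139 called lower, beside 8.92% and 9.34% of all genes tested. The vehicle had the lowest mean of all 20 groups for 98 of the 155 genes called higher (63.2%), beside 8.05% of all tested genes. It had the highest mean for 112 of the 139 called lower (80.6%), beside 8.86%. The called genes were chosen by their distance from this vehicle, so these shares describe them and test nothing. High-dose Longan itself had the highest mean of the 20 groups for 8 of the 155 and the lowest for 4 of the 139.

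**Figure D2:**
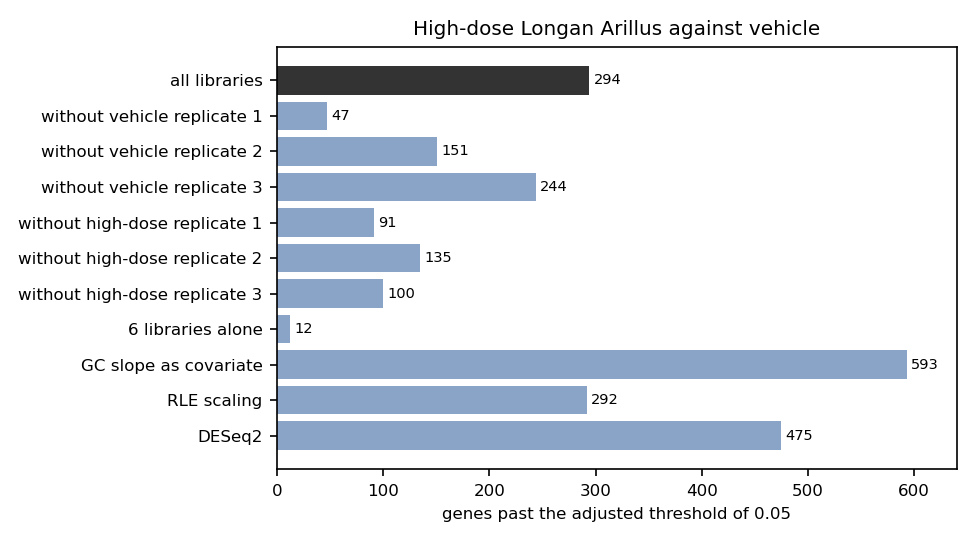
Number of genes past the adjusted threshold in high-dose Longan Arillus against the vehicle (x axis) with all libraries, without each of the 6 libraries, and under other models or scalings (rows). The count was 294 with all libraries, 47 without vehicle replicate 1 and 593 with the GC slope of each library as a covariate.

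Of 21 tested members of the list of genes that NRF2 controls, 8 passed the test as higher, beside 0.938% of all tested genes, and none as lower, and the median log2 fold change of the list was 0.15 beside 0.00 over all tested genes. The called members were AKR1B10, AKR1C1, AKR1C2, AKR1C3, NQO1, ABCC2, SLC7A11 and GCLM. AKR1B10, an aldo-keto reductase that reduces reactive aldehydes and retinal (chr7:134527592-134541408 in GRCh38), had the smallest p of all genes. It measured 34.6, 39.2 and 40.3 CPM in the vehicle libraries and 49.2, 48.6 and 53.5 CPM at the high dose. Every high-dose library lay above every vehicle library, with a log2 fold change of 0.41 ± 0.05 (SE) and an adjusted p of 2.5e-05. NQO1, the quinone reductase used as a standard readout of NRF2 (chr16:69706996-69726951), measured 333, 343 and 345 CPM against 425, 400.2 and 435 CPM. The groups did not overlap, and NQO1 rose by a log2 fold change of 0.30 ± 0.04 (adjusted p = 8.9e-05).

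The other called members have roles in steroid and carbonyl reduction, export and glutathione supply. AKR1C1, which reduces steroids and carbonyls, measured 427, 416 and 444 CPM in the vehicle and 551, 511 and 596 CPM at the high dose (log2 0.37 ± 0.06, adjusted p = 0.0004). AKR1C2 and AKR1C3 rose by 0.27 and 0.31 on the log2 scale. These 3 genes are closely related in sequence, so the split of reads among them is uncertain. ABCC2, the canalicular pump for conjugated compounds, measured 281, 253 and 263 CPM against 326, 308 and 311 CPM, a rise of 0.25 ± 0.04 (adjusted p = 0.0004). SLC7A11, the cystine importer, measured 42.9, 40.7 and 39.2 CPM against 54.1, 49.9 and 49.5 CPM (0.32 ± 0.09, adjusted p = 0.039). GCLM, the modifier subunit of the ligase that starts glutathione synthesis, measured 34.3, 30.3 and 30.046 CPM against 38.4, 37.2 and 39.8 CPM (0.28 ± 0.08, adjusted p = 0.048). In each of these genes the groups did not overlap.

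Some other members of the same list stayed close to the vehicle. GCLC, the catalytic partner of GCLM, had a log2 fold change of -0.03 ± 0.06, TXNRD1 of 0.02 ± 0.06, SRXN1 of 0.03 ± 0.05 and PTGR1 of 0.00 ± 0.10. HMOX1, heme oxygenase, measured 51.2, 57.2 and 58.5 CPM against 60.2, 65.2 and 70.1 CPM and missed the threshold (0.23 ± 0.07, adjusted p = 0.051). FTH1 (0.27 ± 0.17) and OSGIN1 (0.15 ± 0.07) were also above the vehicle without passing. Of the 21 tested members 3 had a negative log2 fold change. NFE2L2 mRNA itself had a log2 fold change of -0.20 ± 0.07 (adjusted p = 0.11). Leaving out 1 library at a time left 4 or 5 called members, 4 without vehicle replicate 1. AKR1B10, NQO1, AKR1C1 and ABCC2 passed in each of the 6 such fits, and GCLM, SLC7A11 and AKR1C3 in none. In the fit of the 6 libraries alone none of the called members passed. SQSTM1, an autophagy receptor that also binds KEAP1, stood in the lysosome and autophagy list. It rose from 187, 203 and 201 CPM to 229, 236 and 230.3 CPM (0.24 ± 0.04, adjusted p = 0.00059). SQSTM1 passed in all 6 fits that left out 1 library and missed in the 6 libraries alone.

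The letters TGACNNNGC, the core of the antioxidant response element that NRF2 binds, were searched on both strands from 250 bases before to 50 after the RefSeq start (GRCh38.p14). They occurred in 13.6% of 27305 promoters and in 3 of the 16 NRF2 list members found in that table (18.8%). Of the 6 called members found there GCLM held them, 34 to 26 bases before its start and on the strand opposite to the gene. ABCC2, AKR1C1, AKR1C2, AKR1C3 and NQO1 did not hold them in the bases searched, and bases further away were not searched. The 250 bases before its start, on the minus strand at chr1:93909431-93909680, are shown because GCLM was the called member with a match, which stands in capitals.
GCLM: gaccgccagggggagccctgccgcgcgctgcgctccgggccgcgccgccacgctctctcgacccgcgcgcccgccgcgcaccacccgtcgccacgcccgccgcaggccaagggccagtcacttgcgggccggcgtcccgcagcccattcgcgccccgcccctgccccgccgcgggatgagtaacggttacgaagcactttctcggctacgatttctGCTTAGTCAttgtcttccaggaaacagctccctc

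GCNT3 was the gene whose rise stood out against both the vehicle and the low dose. It encodes a beta-1,6-N-acetylglucosaminyltransferase that builds branched O-glycans of mucins (chr15:59594875-59640239). GCNT3 measured 14.5, 16.1 and 13.8 CPM in the vehicle libraries, 15.3, 14.6 and 14.2 CPM at the low dose, 15.7, 16.7 and 14.9 CPM at the medium dose and 19.4, 21.4 and 18.9 CPM at the high dose. All high-dose libraries lay above all libraries of the other 3 groups, which overlapped with each other. The rise was 0.43 ± 0.07 on the log2 scale against the vehicle (adjusted p = 0.00033) and 0.43 ± 0.07 against the low dose (adjusted p = 0.000784). High-dose Zizyphi measured 18.6, 19.2 and 17.1 CPM, and the difference from it did not pass (0.12 ± 0.07, adjusted p = 1.0). Among the 20 groups high-dose Longan ranked 6th from the highest for GCNT3, between 13.98 CPM with wortmannin and 31.7 CPM with high-dose Aucklandiae Radix, and its libraries overlapped with those of 4 groups. The gene overlaps GTF2A2 on the opposite strand, whose log2 fold change against the vehicle was -0.18 ± 0.13. The call against the vehicle passed in all 6 fits that left out 1 library, and the call against the low dose was lost without high-dose replicate 2. Neither call passed when only the 6 libraries of its own comparison were fitted. The bases before its RefSeq start (plus strand, chr15:59611533-59611782) hold no match to the antioxidant response core. They are shown because GCNT3 carried the difference between doses.
GCNT3: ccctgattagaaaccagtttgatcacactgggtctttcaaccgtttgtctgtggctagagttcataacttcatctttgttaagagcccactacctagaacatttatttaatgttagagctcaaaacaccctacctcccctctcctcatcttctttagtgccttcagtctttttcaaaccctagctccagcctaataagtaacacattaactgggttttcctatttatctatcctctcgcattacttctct

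HAMP fell. It encodes hepcidin, the liver hormone that blocks iron export by ferroportin, and bone morphogenetic protein (BMP) signals through SMAD proteins switch it on. HAMP (chr19:35280716-35285143) measured 21.7, 22.3 and 24.2 CPM in the vehicle libraries, 23.1, 25.1 and 27.9 CPM at the low dose, 22.8, 21.3 and 26.4 CPM at the medium dose and 13.8, 16.3 and 15 CPM at the high dose. The high-dose libraries lay below all libraries of the other 3 groups. The fall against the vehicle was -0.60 ± 0.16 on the log2 scale (adjusted p = 0.035). Leaving out any of the 6 libraries ended this call (log2 -0.66 to -0.54, with -0.63 and an adjusted p of 0.096 without vehicle replicate 1), while the 6 libraries alone kept it. Against the low dose the difference was -0.76 ± 0.15 and did not pass (adjusted p = 0.079). High-dose Zizyphi stood lower still, at 11.1, 12.3 and 10.2 CPM, with no overlap between the extracts (0.42 ± 0.17 higher with Longan, adjusted p = 1.0). Of the 20 groups high-dose Longan ranked 18th from the highest for HAMP, and no other group's libraries overlapped with its libraries.

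Other BMP-responsive genes and iron genes were measured beside HAMP. ID1, which BMP signals induce and which was in the iron list, measured 119, 132 and 131 CPM in the vehicle libraries, 135, 157 and 167 CPM at the low dose and 113, 129.8 and 132 CPM at the high dose. Its groups overlapped against the vehicle (-0.03 ± 0.11), and the high dose lay below the low dose in every library without passing the test (-0.29 ± 0.10, adjusted p = 1.0). ID3, named after its values were seen, had a log2 fold change of -0.23 ± 0.12 against the vehicle and -0.39 ± 0.12 against the low dose, and neither passed. SMAD6 had -0.11 ± 0.09 and SMAD7 -0.04 ± 0.10 against the vehicle. Of the 14 tested genes of iron handling, 1 was called higher, TF, and 1 lower, HAMP, beside 0.938% and 0.842% of all tested genes. TF, which encodes the plasma iron carrier transferrin, rose by 0.18 ± 0.05 (adjusted p = 0.037), and neither gene passed without vehicle replicate 1. The iron storage and import genes FTL, FTH1 and TFRC had log2 fold changes of 0.08 ± 0.14, 0.27 ± 0.17 and 0.15 ± 0.07. The letters GGCGCC, the core of the BMP response element and their own reverse complement, occurred in 19% of all 27305 promoters. HAMP held them 105 to 100 bases before its start, shown in capitals (plus strand, chr19:35282278-35282527).
HAMP: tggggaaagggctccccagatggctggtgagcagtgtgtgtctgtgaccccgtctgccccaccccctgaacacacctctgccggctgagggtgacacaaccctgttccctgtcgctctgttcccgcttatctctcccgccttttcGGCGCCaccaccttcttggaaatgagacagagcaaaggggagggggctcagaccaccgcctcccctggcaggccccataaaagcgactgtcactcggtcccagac

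**Figure D3:**
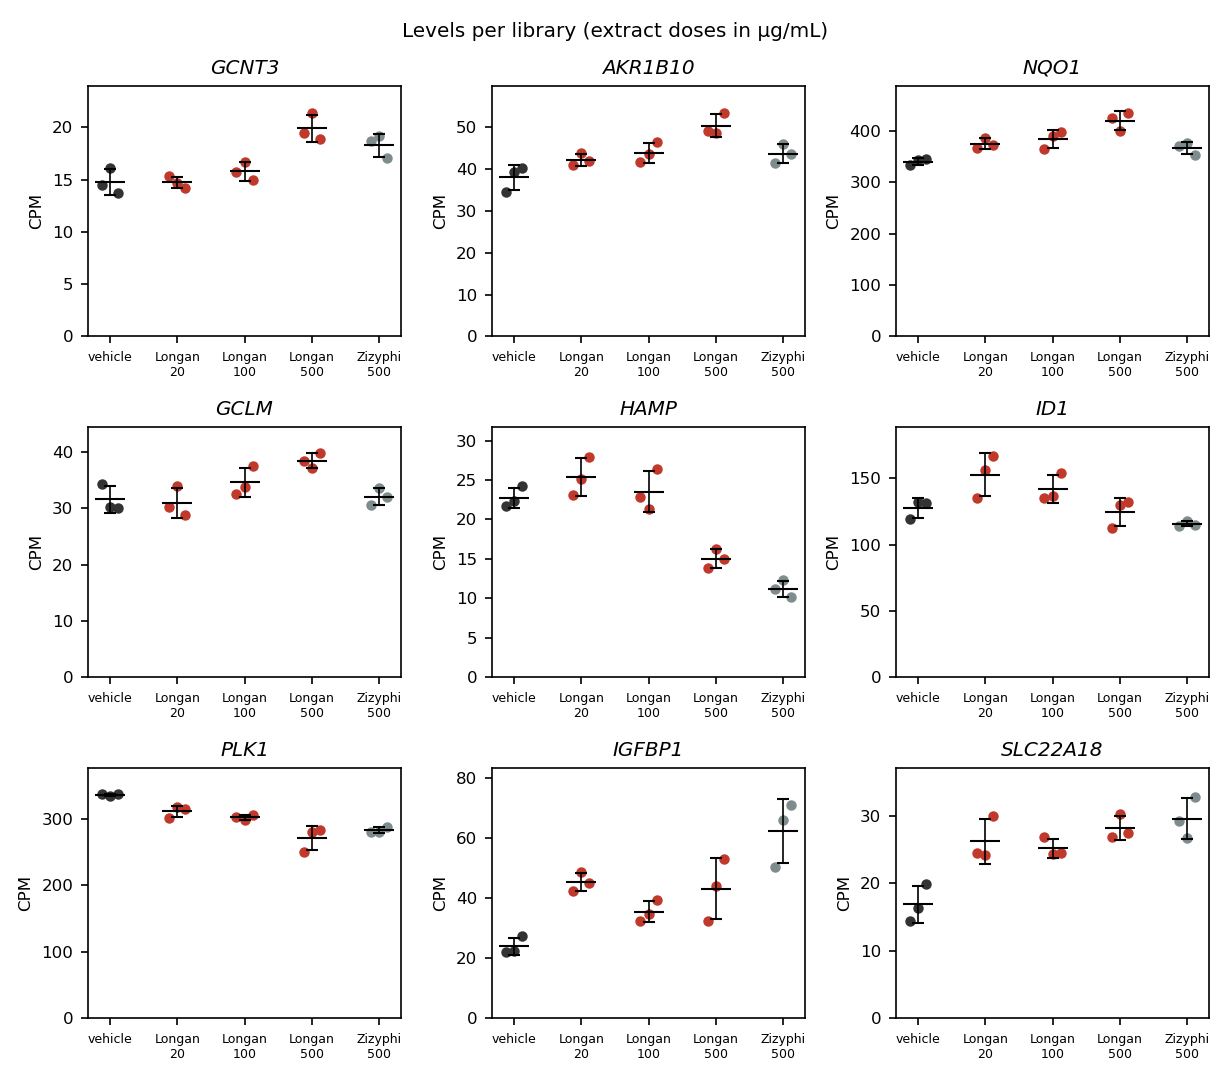
CPM (y axes, from 0) of 9 genes in each library of the vehicle, Longan Arillus at 20, 100 and 500 µg/mL and Zizyphi Semen at 500 µg/mL (x axes), with points for libraries, horizontal lines for means and bars for the SD of 3 libraries. GCNT3 is high and HAMP low at the high Longan dose alone among the Longan doses, while IGFBP1 and SLC22A18 are above the vehicle at all doses.

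Of 19 tested genes of the G2 and M phases, 4 passed as lower (PLK1, MKI67, KIF20A and AURKA), beside 0.842% of all tested genes, and none as higher, 18 had a negative log2 fold change, and the list median was -0.17. PLK1, the kinase that drives mitotic entry and spindle assembly (chr16:23677656-23690367), measured 337, 334 and 337 CPM in the vehicle and 251, 281 and 283 CPM at the high dose. The groups did not overlap, and PLK1 fell by 0.31 ± 0.06 on the log2 scale (adjusted p = 0.0016). It was 301, 318 and 314 CPM at the low dose and 303, 299 and 306 CPM at the medium dose, between the 2 groups. The difference from the low dose did not pass (-0.20 ± 0.06, adjusted p = 0.87). The vehicle mean of PLK1, 336.3 CPM, was the highest of the 20 groups. High-dose Longan ranked 15th from the highest, and its libraries overlapped with those of 7 groups. High-dose Zizyphi measured 280.4 to 287.7 CPM, and the list median for high-dose Longan against high-dose Zizyphi was 0.03. MKI67, the proliferation antigen Ki-67, measured 663, 611 and 618 CPM against 529, 511 and 504 CPM (-0.29 ± 0.08, adjusted p = 0.042). The kinesin of cytokinesis KIF20A and the centrosome kinase AURKA fell by 0.19 and 0.17. PLK1 passed in every fit that left out 1 library and MKI67 in none, and the list count ran from 1 (without vehicle replicate 1, among others) to 3.

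Members of the G2 and M list that missed the threshold included CENPE (-0.24 ± 0.09), CDC20 (-0.18 ± 0.06), TOP2A (-0.09 ± 0.05) and CCNB1 (-0.08 ± 0.05). CDK1, the main mitotic kinase, had the only positive value (0.10 ± 0.07). None of the 19 tested S phase genes passed, with a list median of -0.06. The cell cycle inhibitor CDKN1A measured 82.1, 91.1 and 84.5 CPM against 66.8, 75.1 and 71 CPM, without overlap and short of the threshold (-0.28 ± 0.08, adjusted p = 0.061). In bulk libraries fewer cells of a state and less RNA per cell cannot be told apart.

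Promoters of mitotic genes often hold a cell cycle homology region with the letters TTTGAA, read by the DREAM complex, together with the CCAAT boxes bound by NF-Y. On either strand TTTGAA occurred in 15.4% of all promoters and in 10 of the 16 list members with an entry (62.5%). CCAAT occurred in 35.7% of all promoters and in 14 of the 16 (87.5%). PLK1 and MKI67 held both and KIF20A CCAAT only. The bases before the starts of PLK1 (plus strand, chr16:23678639-23678888) and MKI67 (minus strand, chr10:128126424-128126673) are shown because these genes had the largest falls of the list. All matches stand in capitals, CCAAT also as its reverse complement, and the matches nearest to the start of MKI67 share 1 base.
PLK1: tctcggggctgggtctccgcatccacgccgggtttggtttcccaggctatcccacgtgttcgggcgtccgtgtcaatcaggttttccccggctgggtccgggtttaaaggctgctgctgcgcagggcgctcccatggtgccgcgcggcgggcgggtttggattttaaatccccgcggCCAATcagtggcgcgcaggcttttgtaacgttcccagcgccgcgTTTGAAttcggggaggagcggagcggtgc
MKI67: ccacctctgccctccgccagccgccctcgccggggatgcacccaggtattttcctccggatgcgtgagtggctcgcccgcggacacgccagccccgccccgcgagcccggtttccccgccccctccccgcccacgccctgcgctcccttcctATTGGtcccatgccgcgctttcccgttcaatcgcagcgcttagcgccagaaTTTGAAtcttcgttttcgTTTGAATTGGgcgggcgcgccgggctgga
TTTGAA ended 24 bases before the start in both genes.

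Of 18 tested genes of the hypoxia response, 4 were called higher at the high dose than in the vehicle (PFKFB4, NDRG1, KDM3A and PDK1), beside 0.938% of all tested genes, and none lower, with a list median of 0.22, and no member passed without vehicle replicate 1. PFKFB4, which makes the fructose 2,6-bisphosphate that stimulates glycolysis, measured 14.2, 13.8 and 16.8 CPM in the vehicle and 23.1, 24.1 and 22.2 CPM at the high dose (log2 0.63 ± 0.13, adjusted p = 0.0081). It was already at 23.1, 21.8 and 22.8 CPM at the low dose, where it overlapped with the high dose. NDRG1, a stress-responsive growth regulator, measured 36.2, 32.9 and 41.3 CPM against 47.7, 50.2 and 53.4 CPM (0.45 ± 0.10, adjusted p = 0.013). KDM3A, a histone demethylase, and PDK1, a kinase that inhibits pyruvate dehydrogenase, rose by 0.28 and 0.29. VEGFA, the vascular growth factor, had 0.10 ± 0.05 and BNIP3, a mitophagy receptor, 0.20 ± 0.07, neither past the threshold. ERO1A, an oxidase of the endoplasmic reticulum, had 0.00 ± 0.06 and ADM, which encodes adrenomedullin, -0.11 ± 0.10. The median of the list was 0.03 for the high against the low dose.

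Of 18 tested genes of glycolysis and glucose uptake, 3 were called higher, beside 0.938% of all tested genes and none of them without vehicle replicate 1. The list median was 0.11. The glucose transporter gene SLC2A1 measured 591, 636 and 651 CPM in the vehicle and 709.9, 725 and 745 CPM at the high dose (0.22 ± 0.04, adjusted p = 0.0017). PGK1 and GPI, enzymes of glycolysis, rose by 0.22 and 0.15, while LDHA (0.03 ± 0.06) and HK2 (0.14 ± 0.10) did not pass.

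IGFBP1 had the largest rise under the naming rule, which asks for a called gene with a symbol, at least 5 CPM in either group and no overlap. IGFBP1, a secreted binder of insulin-like growth factors that insulin represses through FOXO1 (chr7:45888357-45893668), measured 22.1, 22.4 and 27.3 CPM in the vehicle and 32.5, 44.1 and 52.9 CPM at the high dose. The high-dose libraries spread widely and all lay above the vehicle, with a log2 fold change of 0.86 ± 0.18 (adjusted p = 0.0086). The low dose, at 42.5, 48.7 and 45.2 CPM, overlapped with the high dose, and the difference between them was -0.07 ± 0.17. The vehicle mean of IGFBP1, 23.9 CPM, was the lowest of the 20 groups. PCK1, the enzyme that commits carbon to gluconeogenesis and another FOXO target, measured 1.96, 2.31 and 2.01 CPM against 3.3, 3.51 and 3.63 CPM (0.74 ± 0.16, adjusted p = 0.0079). These were the 2 called genes among the 18 tested of gluconeogenesis and FOXO targets, beside 0.938% of all tested genes called higher. The list median was -0.02, and neither gene passed without vehicle replicate 1. IGFBP1 also missed without high-dose replicate 3. FOXO1 mRNA had -0.16 ± 0.07.

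The further large rises under the rule were spread over many functions. SLC22A18, an organic cation transporter of the imprinted region of chromosome 11, measured 14.5, 16.4 and 19.8 CPM against 26.9, 30.3 and 27.5 CPM (0.74 ± 0.15, adjusted p = 0.0042). It stood at 24.4, 24.2 and 30.003 CPM at the low dose, overlapping with the high dose, and it has an antisense partner, SLC22A18AS. PTPRH, a receptor tyrosine phosphatase, measured 8.19, 8.89 and 9.63 CPM against 13.7, 14 and 13 CPM (0.61 ± 0.10, adjusted p = 0.00042). COL7A1, the anchoring fibril collagen, rose by 0.77 ± 0.19, NME3, a nucleoside diphosphate kinase, by 0.72 ± 0.18, ZC3H12D, a CCCH zinc finger protein, by 0.66 ± 0.13 and PGGHG, a glycosidase of collagen disaccharides, by 0.48 ± 0.10. MST1P2 (0.50 ± 0.13) is a pseudogene of MST1, and TNRC6C-AS1 (0.49 ± 0.13) lies antisense to TNRC6C, so both values are uncertain. Of these rises PTPRH passed in all 6 fits that left out 1 library, and SLC22A18, ZC3H12D and PGGHG in all but that without vehicle replicate 1. COL7A1, NME3, MST1P2 and TNRC6C-AS1 missed in that fit and in others.

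Under the rule, which leaves out genes without a symbol such as ENSG00000265401, the falls ran from -0.62 in USP34-DT to -0.35 on the log2 scale. USP34-DT, an antisense transcript beside XPO1 whose reads are uncertain, fell by 0.62 ± 0.16. RFX7, a transcription factor, measured 122, 104 and 104 CPM against 84.8, 83.3 and 88.1 CPM, with no overlap (-0.36 ± 0.06, adjusted p = 0.00033), and CPLX2, the exocytosis regulator complexin 2, 316, 335 and 322 CPM against 255, 269 and 234 CPM (-0.36 ± 0.07, adjusted p = 0.004). SRRM1, a splicing coactivator, fell by 0.35 ± 0.08 and DCP1B, of the mRNA decapping complex, by 0.35 ± 0.08. ZNF619, a zinc finger gene, fell by 0.49 ± 0.12, GPATCH11 by 0.39 ± 0.07 and PPP1R18 by 0.38 ± 0.09. RFX7 and CPLX2 passed without vehicle replicate 1, while USP34-DT, SRRM1, DCP1B, ZNF619, GPATCH11 and PPP1R18 did not. CPLX2 missed without high-dose replicate 3.

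FST, LYZ, ITIH3 and KPNB1 were named after their values were seen, for their small p-values. FST, the activin-binding follistatin, rose from 39.7, 38.4 and 41.2 CPM to 52.9, 53.2 and 52.2 CPM (0.41 ± 0.06, adjusted p = 3.9e-05), with the low dose at 48.2, 49.2 and 46.3 CPM, below every high-dose library. LYZ, lysozyme, rose from 929, 972 and 945 CPM to 1136, 1074 and 1216 CPM (0.27 ± 0.05, adjusted p = 0.00058). LYZ stood in the list of immune markers, whose sum was 980.7 to 1022 CPM in the vehicle and 1126 to 1263 CPM at the high dose, nearly all of it LYZ. ITIH3, a plasma protein that binds hyaluronan, rose from 92.7, 100.0 and 102 CPM to 119.5, 115 and 123 CPM (0.28 ± 0.05, adjusted p = 0.0004). KPNB1, the nuclear import receptor importin beta, fell from 711, 668 and 667 CPM to 595, 602 and 572 CPM (-0.21 ± 0.04, adjusted p = 0.00098). FST, LYZ, ITIH3 and KPNB1 passed without each library in turn.

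In the lists that follow, calls stand beside 0.938% of all tested genes called higher and 0.842% called lower. Of 20 plasma protein genes, 3 were called higher (FGA, AMBP and TF) and none lower, with 1 left without vehicle replicate 1 and a median of 0.10. FGA, the alpha chain of fibrinogen, measured 1235, 1179.7 and 1193 CPM against 1384, 1345 and 1542 CPM (0.24 ± 0.05, adjusted p = 0.0075), and missed without high-dose replicate 3. The other fibrinogen chains FGB (0.04 ± 0.07) and FGG (0.10 ± 0.06) did not pass, nor did ALB (0.23 ± 0.09, adjusted p = 0.16). Of 13 genes of PPARA and fatty acid oxidation, ACADVL, which oxidises very long acyl chains, and PLIN2, of the lipid droplet coat, rose by 0.24 and 0.20, and neither passed without vehicle replicate 1. Of 21 lysosome and autophagy genes, SQSTM1, the cholesterol exporter NPC1 (0.21 ± 0.05) and the galactosidase GLA (0.26 ± 0.07) were called higher, and SQSTM1 alone without vehicle replicate 1. NKD1, an inhibitor of WNT signals and the called member of 13 beta-catenin targets, fell from 619, 624 and 637 CPM to 530.5, 556 and 512 CPM (-0.23 ± 0.05, adjusted p = 0.0033). NCL, the nucleolar protein nucleolin, fell from 1994, 1965 and 1882 CPM to 1675, 1636 and 1537 CPM (-0.27 ± 0.06, adjusted p = 0.018) and was the only called gene of 20 in ribosome biogenesis. Its call was lost without vehicle replicate 1, vehicle replicate 2 or high-dose replicate 3.

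**Figure D4:**
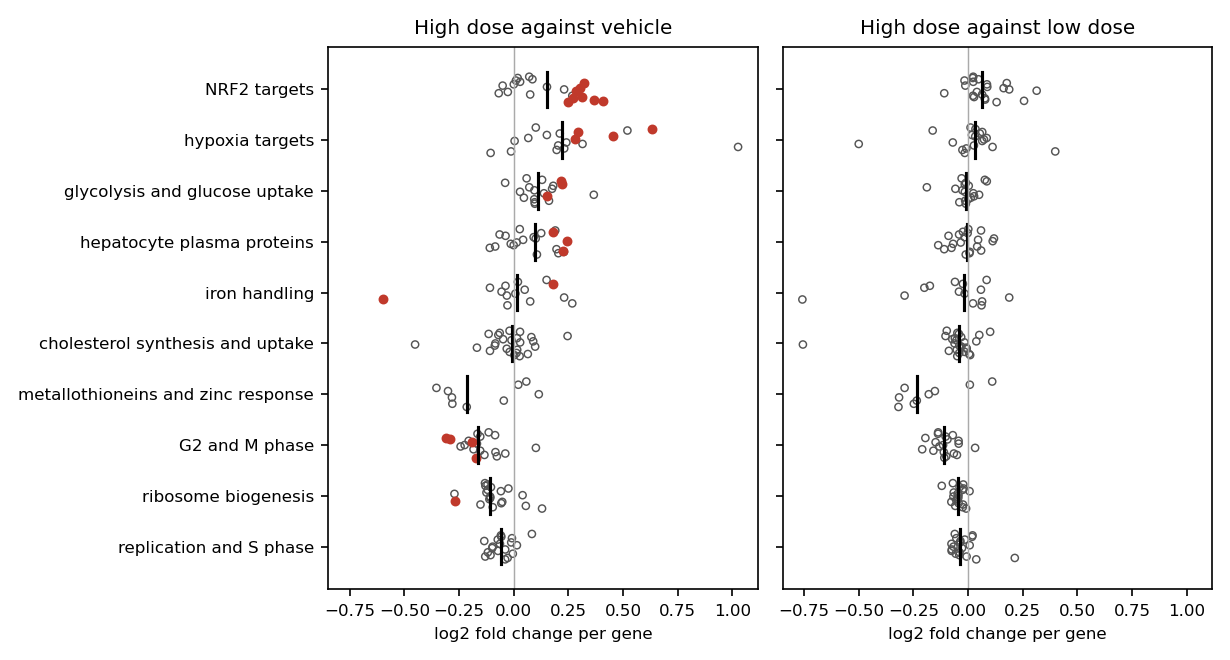
Log2 fold change (x axes) of each tested member of 10 gene lists (rows) for the high dose against the vehicle (left) and against the low dose (right), with filled red points for genes past the adjusted threshold, open points for the others and black bars for list medians. The medians against the vehicle are 0.15 for NRF2 targets, 0.22 for hypoxia targets and -0.17 for G2 and M phase, and no listed gene is called against the low dose.

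Several other sets had no called member. None of 25 genes of cholesterol synthesis and uptake passed (median -0.01), with HMGCS1 at -0.17 ± 0.05 (adjusted p = 0.087), none of 12 of fatty acid synthesis (-0.04) and none of 16 p53 targets (-0.02). Endoplasmic reticulum chaperones (0 of 16), heat shock chaperones (0 of 17), interferon response genes (0 of 12) and bile acid genes (0 of 11) were likewise without a call. MT2A, a metal-binding metallothionein, measured 208, 185 and 196 CPM against 127, 151 and 183 CPM, and none of the 9 tested genes of its list passed (median -0.22). CYP1A1 measured 7.15, 7.2 and 7.24 CPM in the vehicle and 9.05, 8.28 and 9.1 CPM at the high dose, without overlap and short of the threshold (0.29 ± 0.10, adjusted p = 0.11). Against the low dose it stood 0.44 ± 0.10 higher (adjusted p = 0.17). Of the 6 tested targets of the aryl hydrocarbon receptor, 1 was called higher, NQO1, beside 0.938% of all tested genes. NQO1 also stood in the NRF2 list. All 13 mitochondrially encoded mRNAs had negative log2 fold changes (-0.61 for MT-ATP8 to -0.07 for MT-ND4L), and none passed. Their median was -0.33 against the vehicle and 0.02 against the low dose. Of the 6 libraries vehicle replicate 1 had the highest share of counts in these mRNAs (16.14%). The other vehicle libraries (13.01 and 13.15%) lay within the range of the high dose (10.31 to 13.46%).

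The lower doses were compared to see how the difference from the vehicle varied with dose. These comparisons share the 3 vehicle libraries, so their calls are not independent. The low dose had 96 called genes against the vehicle (0.581%), 62 higher (0.375%) and 34 lower (0.206%). The medium dose had 11 (0.0666%), 6 higher (0.0363%) and 5 lower (0.0303%). Without vehicle replicate 1 both counts were 0, and the medium dose also had none without its own replicate 2. The number of calls did not follow the dose, from 96 to 11 to 294. The list medians against the vehicle at the low, medium and high dose were 0.04, 0.05 and 0.15 for NRF2 targets and -0.04, -0.05 and -0.17 for G2 and M phase. For hypoxia targets they were 0.22, 0.11 and 0.22, and for glycolysis 0.12, 0.08 and 0.11. These medians were not tested against each other.

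Within the Longan libraries 1 gene passed between the high and the low dose, GCNT3 (0.00605% of the genes tested), and 441 (2.67%) had an unadjusted p under 0.05. The genes next in order were HAMP (adjusted p = 0.079), AKR1B10 (0.26 ± 0.05, adjusted p = 0.096) and CYP1A1. AKR1B10 measured 41.1, 43.8 and 41.9 CPM at the low dose, below every high-dose library. NQO1, at 367, 387 and 373 CPM at the low dose, did not pass (0.16 ± 0.04, adjusted p = 0.78). DESeq2 called 4 genes, namely HAMP, GCNT3, AKR1B10 and the readthrough transcript BLOC1S5-TXNDC5, which shares reads with its parent genes. The median of the NRF2 list was 0.06 between the high and low dose and that of G2 and M phase -0.11, with no member called in either.

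High-dose Longan and high-dose Zizyphi, given at the same dose and from the same code set, differed in 7 genes (0.0424%), 3 higher (0.0182%) and 4 lower (0.0242%) with Longan. 644 genes (3.9%) had an unadjusted p under 0.05. CYP1A1 measured 9.05, 8.28 and 9.1 CPM with Longan and 13.4, 13.6 and 11.5 CPM with Zizyphi, with no overlap (-0.54 ± 0.09, adjusted p = 0.0015). ACSS2, which makes acetyl-CoA from acetate, measured 137, 132 and 141 CPM against 115, 113 and 113 CPM (0.27 ± 0.04, adjusted p = 7.2e-05). FADS2, a fatty acid desaturase, measured 326, 319.8 and 321 CPM against 271, 264 and 275 CPM (0.25 ± 0.04, adjusted p = 0.0015). With Longan, ACSS2 and FADS2 overlapped with the vehicle, at 123, 133 and 129.8 CPM and 309.8, 342 and 328 CPM. The other 4 were the asparagine synthetase ASNS (0.32 ± 0.07), the metalloproteinase inhibitor TIMP3 (-0.21 ± 0.03), the membrane protein UNC93A (-0.49 ± 0.09) and the unnamed ENSG00000176134 (-0.61 ± 0.13). NQO1 and AKR1B10 stood above Zizyphi in every library without passing (0.20 ± 0.04, adjusted p = 0.079, and 0.21 ± 0.05, adjusted p = 0.28).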

How the data were processed

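RNA from 60 HepG2 libraries was sequenced from a strand-specific mRNA kit, per the labels' protocols. The authors deposited expected counts per gene in a single table. Per the submitters' processing notes, which give no order, the tools included RSEM 1.3.3, STAR 2.7.3a, Trim Galore 0.6.5 and FastQC 0.11.9, and the genome is named as GRCh38 and as hg38. Which annotation release was used, and whether counting used strand, was not given in the sources used here, so overlapping, antisense and near-identical genes are uncertain. Of 60675 genes, 57055 matched a symbol and a position in the GENCODE 29 annotation of GRCh38.

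The expected counts were then rounded (10.3% of values were not whole) and filtered with filterByExpr by group, and the untested genes held 0.0532% of counts. A single edgeR quasi-likelihood model with TMM factors and 20 group terms covered the 60 libraries (edgeR 4.0.16 with limma 3.58.1 under R 4.3.3), tested 2-sided and adjusted over all 16517 tested genes at 0.05. CPM follow TMM scaling, and log2 fold changes carry their SE. On simulated counts of this comparison (16517 genes) the test found 46% of the genes changed 1.25-fold, 70% of those changed 1.5-fold, 94% of those changed 2-fold and 96% of those changed 4-fold, beside 5 false calls. The counts were drawn independently from the fitted spread, with changes set only in genes above a floor in the vehicle. No simulated library had a GC slope of its own, as vehicle replicate 1 had, so the false calls do not cover such a shift.

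Comparisons, gene lists and members were chosen with earlier results of these data known. Named genes are the 10 largest rises and falls among genes with a symbol past the test with a group mean of at least 5 CPM and no overlap of libraries (6 each way between doses), the 3 smallest p-values of each of 37 lists, and 8 fixed genes (CYP1A1, IGFBP1, TXNIP, HMGCS1, NQO1, MT2A, CDKN1A and ALB). Other genes were named after their values were seen, among them the further called or listed members. Some genes that these rules name are not reported here. Promoter sequences are from RefSeq (GRCh38.p14). Alternatives were RLE scaling, no filter or a stricter filter, a replicate block, the 6 libraries alone, the GC slope as a covariate, DESeq2 1.42.0 and leaving out each library.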

Additional observations from a re-analysis of the deposited data

Results flagged for a closer look

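Effects were compared between extracts and between doses by a test of the difference itself in edgeR's quasi-likelihood model, and genes past the adjusted threshold are given here. High-dose Longan Arillus minus high-dose Zizyphi Semen was 0.32 on the log2 scale for ASNS (adjusted p = 0.0394), 0.27 for ACSS2 (adjusted p = 7.17e-05) and 0.25 for FADS2 (adjusted p = 0.00152). It was -0.21 for TIMP3, -0.49 for UNC93A, -0.54 for CYP1A1 and -0.61 for the unnamed ENSG00000176134. The difference between the high and the low dose of Longan Arillus was 0.43 for GCNT3 (adjusted p = 0.000784).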

How the results depend on the processing

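For high-dose Longan against the vehicle (294 called, 155 higher and 139 lower), leaving out 1 library at a time gave 47 to 244 calls, 27 to 134 higher and 20 to 110 lower. The 6 libraries alone gave 12 (6 and 6), and 13 with a replicate block (6 and 7). Without a filter, with 35717 genes tested, 505 passed (275 and 230), of which 156 were among the 294. The GC slope covariate gave 593 (286 and 307) with all 294 among them, DESeq2 475 (220 and 255), RLE scaling 292 and the stricter filter 352. The medium dose against the vehicle (11) gave 290 without a filter, 108 with the covariate, 51 with DESeq2 and 0 to 10 with a library left out. The low dose (96) gave 454, 188, 228 and 0 to 113 in the same order, 11 from its 6 libraries alone and 27 with their block. High against low dose (1) gave 70, 2, 4 and 0 to 1, and Longan against Zizyphi (7) gave 88, 14, 16 and 3 to 6. Both gave 0 from the 6 libraries alone, with or without a block, beside 441 and 644 genes at an unadjusted p under 0.05, and 4 and 16 with DESeq2. High against low dose gave 0 without high-dose replicate 2, and Longan against Zizyphi gave 3 without it. The cause was not tested, except that settings without a filter test more genes and the small fits have fewer libraries. Of 57 called genes named in the text or its lists, DESeq2, the covariate, the stricter filter and the block over all libraries each kept 57, RLE scaling 55 and no filter 48. The 6 libraries alone kept 6, and leaving out vehicle replicate 1 kept 18. None of these 57 turned direction under the alternatives, while uncalled genes near 0 did, such as GCLC (log2 -0.07 to 0.01), LDHA (-0.01 to 0.09) and ID1 (-0.08 to 0.04). Same-numbered libraries of the high dose and the vehicle deviated from their group means with correlations of 0, 0 and -0.07. With so few libraries per group these values cannot exclude a pairing, and the main fit used none. The replicate block over all libraries gave 352 calls (178 and 174), 12 and 120 for the medium and low dose, 1 between doses and 10 against Zizyphi.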
